A study of Mus musculus with 6 samples.

Results

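The genes described here encode enzymes that make, use or phosphorylate NAD, and were chosen by name: Afmid, Kmo, Kynu, Haao and Qprt of synthesis from tryptophan, Nampt, Naprt and Nmnat1 of salvage and of the shared adenylation step, Nadk, an NAD kinase, and Cd38, an NAD-cleaving surface enzyme. Earlier results of these data were known at that choice. These 10 symbols were all found among the 52459 gene symbols of the count table. All 10 passed the filter on low counts that left 15380 genes. RNA was sequenced from C57BL/6 mouse macrophages grown out of bone marrow with the growth factor GM-CSF. The 3 piceatannol libraries came from cultures given piceatannol overnight from day 7, and the 3 control libraries from cultures given its vehicle over the same time. Piceatannol is a plant stilbene related to resveratrol and inhibits, among others, the kinase Syk. Its dose, the vehicle, the age of the mice and any separate mice or cultures behind the libraries are not stated in the labels, so the p-values measure a spread between libraries that may be technical.

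NAD carries electrons in metabolism and is also consumed as a substrate by sirtuins, by poly(ADP-ribose) polymerases (PARPs) and by glycohydrolases. Cells make it de novo from tryptophan through kynurenine and quinolinic acid, from nicotinic acid, or by salvage of the nicotinamide that NAD-consuming enzymes release. In macrophages the kynurenine branch is known for its induction by interferon-gamma and for quinolinic acid, and NAMPT, the rate-limiting salvage enzyme, for its induction during inflammatory activation.

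With piceatannol, transcripts of 4 consecutive de novo enzymes (Kmo, Kynu, Haao and Qprt) fell and those of the salvage enzyme Nampt rose. Kmo fell 35.1-fold, Kynu 6.63-fold, Haao 3.16-fold and Qprt 2.33-fold, while Nampt rose 3.35-fold. Nadk fell 1.82-fold and Cd38 4.74-fold. Afmid, Naprt and Nmnat1 did not pass the test. The test was edgeR's quasi-likelihood test across all 15380 genes with Benjamini-Hochberg adjustment and a threshold of 0.05. It called 7 of the 10 members, 1 up and 6 down, where it called 77% of all genes, 38.8% up and 38.3% down. The share of members called is therefore close to that of all genes. The median log2 fold change was -1.04 over the members and 0.01 over all genes. In size, 3 of the 10 members (Kmo, Kynu and Cd38) fell at least 4-fold, against 6.35% of all genes. At a lower cutoff, 1 (Nampt) rose at least 2-fold, against 17.5% of all genes. The cutoffs differ by direction, so falls and rises cannot be compared through these shares. Because earlier results were known when the members were chosen, the median and these shares are description only. The groups did not overlap in CPM (counts scaled to a common library size) for the 7 called members, against 79% of all genes tested.

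**Figure D1:**
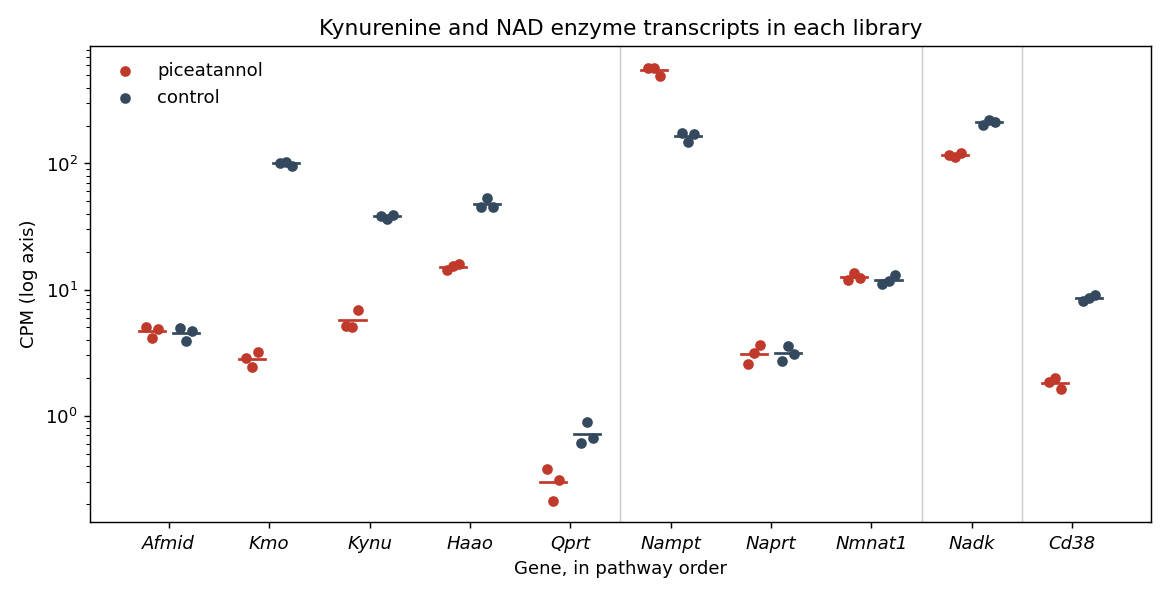
Transcript level of the 10 members in each library, as CPM on a log axis, with piceatannol libraries (red) left of control libraries (dark blue) and a bar at the mean of each group of 3. Kmo shows the widest gap, at 2.42 to 3.17 CPM with piceatannol and 95.9 to 103 CPM in control, and the groups overlap for Afmid, Naprt and Nmnat1.

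The libraries held between 33276569 and 49283203 counts with piceatannol and between 43586270 and 58697084 in control. Mitochondrially encoded genes took 1.87% to 2.65% of counts with piceatannol and 0.777% to 0.866% in control. The marker counts that follow stand beside 38.8% of all genes called up and 38.3% called down. Of the macrophage markers 2 rose (Cd14 by 1.93 and Cd68 by 1.11, log2) and 6 fell of 8. Their summed level was 13197 to 14672 CPM with piceatannol and 18595 to 22569 CPM in control. Lyz2 made up most of this sum, with a mean of 10224 CPM with piceatannol and 14876 CPM in control. Dendritic cell markers fell in 7 of 9 tested cases and rose in 1, with sums of 1823 to 2123 CPM with piceatannol and 6906 to 7788 CPM in control. H2-Ab1 was the largest part, with a mean of 1079 CPM with piceatannol and 5619 CPM in control. Neutrophil markers fell in 8 of 8 tested cases, with sums of 34.9 to 42.8 CPM with piceatannol and 259 to 604 CPM in control. Most of this came from S100a8 and S100a9, with means of 26.3 and 9.67 CPM with piceatannol and 149 and 231 CPM in control. Fibroblast and stroma markers fell in 5 of 6 cases, with sums of 499 to 562 CPM with piceatannol and 2188 to 2432 CPM in control, and markers of dividing cells fell in 6 of 6, with sums of 71.2 to 112 CPM with piceatannol and 516 to 589 CPM in control. Mast cell and basophil markers fell in 4 of 5 tested cases, while Kit rose and took their sum to 67.9 to 85.4 CPM with piceatannol, against 24.04 to 30.3 CPM in control. Markers of B cells fell in 5 of 5 cases and summed to at most 0.926 CPM with piceatannol and 3.82 CPM in control, and those of T and NK cells fell in 2 of 2 tested cases and summed to at most 0.246 CPM with piceatannol and 1.495 CPM in control, with Ncr1 at 0 in all libraries. The part of these shifts in the members' changes was not tested, and in bulk RNA fewer cells of a type and less RNA per cell cannot be told apart.

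Sequence upstream of the transcription start is shown for the most reduced member, Kmo, for Haao, and for Nampt, the member that rose. RefSeq windows on build GRCm38.p6 were found for 8 of the 10 members, and not for Kynu and Naprt. The 250 bases before each start were searched on both strands for 7 motifs: ACGTG (hypoxia response core), GCGTG (aryl hydrocarbon response core), TGACNNNGC (antioxidant response), TGANTCA (AP-1), CACGTG (E-box, which contains the hypoxia core), the NF-kB motif (GGG and CC with 5 free bases between) and the interferon-stimulated response motif (GAAA repeated after 2 free bases). Each sequence is given 5′ to 3′ on the gene's strand, with matches in capitals (CACGC and CACGT are the reverse strand of GCGTG and ACGTG), and stops before any base annotated as untranslated region. The Kmo stretch is chr1:175631943-175631995 on the plus strand, that of Haao chr17:83846813-83847040 on the minus strand, and that of Nampt chr12:32820085-32820334 on the plus strand. All 3 starts lie inside the annotated gene spans given further on.
Kmo: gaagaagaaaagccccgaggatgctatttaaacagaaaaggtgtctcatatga
Haao: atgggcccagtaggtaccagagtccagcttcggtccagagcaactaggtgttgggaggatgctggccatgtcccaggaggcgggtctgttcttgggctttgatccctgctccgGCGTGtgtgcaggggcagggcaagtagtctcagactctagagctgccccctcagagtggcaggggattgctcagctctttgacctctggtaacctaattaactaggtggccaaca
Nampt: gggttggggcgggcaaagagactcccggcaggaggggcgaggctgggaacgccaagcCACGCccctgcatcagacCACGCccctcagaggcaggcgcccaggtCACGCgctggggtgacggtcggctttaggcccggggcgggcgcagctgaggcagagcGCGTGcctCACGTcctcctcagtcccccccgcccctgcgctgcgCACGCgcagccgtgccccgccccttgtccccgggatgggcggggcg
The Kmo window held 0 matches to the 7 motifs over its 250 bases. The Haao window held 1 GCGTG match, a motif present in 28.2% of 32851 RefSeq windows of this length. The Nampt window held 5 GCGTG matches, a number reached or passed in 0.3% of windows, and 1 ACGTG match, a motif present in 16.6%. Such matches were not limited to the member that rose: of the 2 windows of Nadk, which fell, 1 held none and the other held 3 GCGTG, 3 ACGTG and 1 CACGTG match, the last of which overlaps ACGTG. The windows of Afmid, Qprt and Nmnat1 held 1 to 3 matches each, and that of Cd38 held 0. The Nampt window was also richer in G and C, at 75.6%, than the median window at 52.4%, and the Kmo window had 42.8%. A match is a description of the letters only.

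The entry into the de novo route was barely expressed in either group. Ido1, Ido2 and Tdo2 encode the dioxygenases that open the indole ring of tryptophan. Ido1 had 2, 3 and 3 counts with piceatannol and 5, 7 and 3 in control, and Ido2 had 0, 5 and 3 counts with piceatannol and 4, 8 and 8 in control. Tdo2 had 0 counts in every piceatannol library and 0, 2 and 0 in control. The filter removed all 3, and no difference could be detected with so few counts. Afmid, the formamidase that turns N-formylkynurenine into kynurenine (chromosome 11, 117825924 to 117839908, GRCm38), was measured at 5.03, 4.15 and 4.83 CPM with piceatannol and 4.92, 3.94 and 4.70 CPM in control. The groups overlapped, and the difference of 0.05 ± 0.15 (log2, SE) missed the threshold (edgeR, adjusted p = 0.772). Afmid shares 83 exon bases with Tk1 on the opposite strand, a gene whose summed counts were 316 with piceatannol and 3442 in control, and without a stated strand setting these reads cannot be separated. It also shares 1566 exon bases with Gm20708 on the same strand, which had 0 summed counts with piceatannol and 5 in control, so the Afmid counts depend on how shared reads were treated.

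Kmo encodes kynurenine 3-monooxygenase, which commits kynurenine to the quinolinic acid branch (chromosome 1, 175620381 to 175662116). It had 2.85, 2.42 and 3.17 CPM with piceatannol and 101, 103 and 95.9 CPM in control. Every piceatannol library was far below every control library, with 355 counts summed over the 3 piceatannol libraries and 15527 over the 3 control libraries. The log2 fold change was -5.13 with an SE of 0.09 (edgeR's quasi-likelihood test, adjusted p = 5.85e-20), and ranked 47 from the lowest of the 15380 tested genes. Kynu encodes kynureninase, which cleaves 3-hydroxykynurenine to 3-hydroxyanthranilate (chromosome 2, 43555329 to 43682715). It had 5.13, 5.08 and 6.84 CPM with piceatannol and 38.3, 36.4 and 39.3 CPM in control. The groups were well apart, and piceatannol replicate 3 was the highest of its group for Kynu as for Kmo. Its log2 fold change was -2.73 (SE 0.10, edgeR adjusted p = 4.52e-15), and 3.17% of all genes had a lower one.

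Haao encodes the dioxygenase that opens the ring of 3-hydroxyanthranilate on the way to quinolinic acid (chromosome 17, 83831156 to 83847963). It had 14.2, 15.4 and 15.9 CPM with piceatannol and 45.5, 52.8 and 45.4 CPM in control. The groups did not overlap, and the log2 fold change was -1.66 (SE 0.08, edgeR adjusted p = 2.18e-13). Qprt encodes the phosphoribosyltransferase that turns quinolinic acid into nicotinic acid mononucleotide (chromosome 7, 127107114 to 127122226). It was the least expressed member, also per gene length, with 16, 7 and 15 counts with piceatannol and 32, 39 and 39 in control. All piceatannol libraries were below all control libraries, also as CPM (0.380, 0.212 and 0.307 with piceatannol and 0.606, 0.889 and 0.660 in control). The log2 fold change of -1.22 (SE 0.36, edgeR adjusted p = 0.0049) had the widest error of the members.

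The 4 falls were of unequal size. Per gene length, as FPKM (fragments per kilobase, scaled for library depth by the authors), the ratio of Kmo to Kynu was 0.649 ± 0.0616 with piceatannol and 3.43 ± 0.258 in control (SD, n = 3 each). Kmo was thus the higher of the pair in each control library and the lower in each piceatannol library. The ratio of Kmo to Haao was 0.0481 ± 0.00627 with piceatannol and 0.542 ± 0.0336 in control. The deposited FPKM of Haao implies a gene length of 1223 bases, where its annotated exons (GENCODE M21) span 4681. On annotated lengths the Kmo to Haao ratio was 0.185 ± 0.0241 with piceatannol and 2.08 ± 0.130 in control. Kmo was then the higher of the pair in control. This alternative divides the deposited counts by the annotated length, and reads were not counted anew over those exons. If the deposited counts cover fewer exons, it understates Haao, so the order of Kmo and Haao in control is not settled. For each of the 4 FPKM ratios computed the groups did not overlap, on either length. An exact two-sided permutation test gave p = 0.1, the smallest that 20 splits of 3 against 3 allow (0.1 after Benjamini-Hochberg adjustment over the 4). Every gene in these ratios was itself called, and 79% of all genes tested did not overlap in CPM. The ratios of Nampt, which rose, to genes that fell are therefore no separate support.

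**Figure D2:**
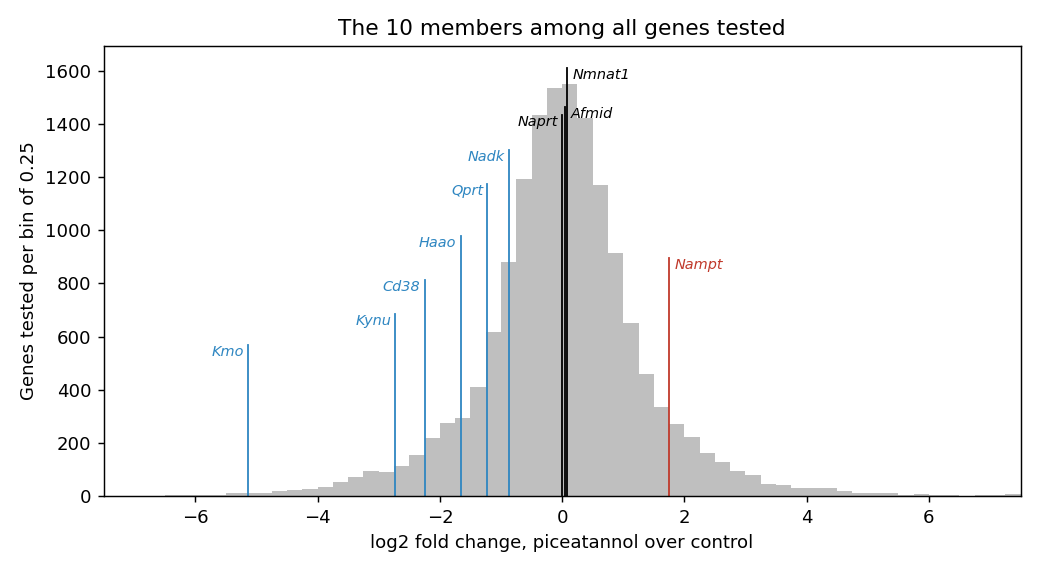
Log2 fold changes (piceatannol over control) of the 10 members, as lines, over a histogram of all 15380 tested genes in bins of 0.25, with 23 genes beyond the axis limits of 7.5 not drawn; red marks the member that rose, blue those that fell and black those not called, and line heights serve only to separate the names. Kmo lies far out in the lower tail at -5.13, Nampt at 1.74 has 8.22% of genes above it, and Afmid, Naprt and Nmnat1 sit at the centre.

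The side branches and the exit of the kynurenine route were measured as well. Of the 12 genes listed for synthesis from tryptophan, 7 were tested, of which 5 fell and 1 rose, where 38.3% of all genes fell and 38.8% rose, and the list's median was -1.24 (log2). The members are 5 of these 7, and of the other 2 genes 1 rose and 1 fell. Besides the members, Kyat3, a kynurenine aminotransferase that makes kynurenic acid, fell by 1.24 on the log2 scale to 3.45 ± 0.382 CPM with piceatannol, against 8.12 ± 0.409 CPM in control (SD, n = 3 each). The single rise was that of the related aminotransferase gene Kyat1 (0.93), named here after its value was seen. Acmsd, whose product diverts an intermediate away from quinolinic acid, had 0 counts in all libraries. Aadat, another aminotransferase gene, had 2 counts with piceatannol and 0 in control.

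Nampt encodes the phosphoribosyltransferase that turns nicotinamide into nicotinamide mononucleotide (chromosome 12, 32819545 to 32853349). It had 576, 576 and 493 CPM with piceatannol and 173, 147 and 171 CPM in control. The lowest piceatannol library, replicate 3, was still well above the highest control library. The log2 fold change was 1.74 (SE 0.08, edgeR adjusted p = 2.1e-13). Naprt encodes the enzyme that takes nicotinic acid into NAD synthesis (chromosome 15, 75890956 to 75894481), and had 2.56, 3.12 and 3.62 CPM with piceatannol and 2.71, 3.55 and 3.08 CPM in control. Its groups overlapped, with a log2 fold change of 0.00 (SE 0.18, edgeR adjusted p = 0.993) whose sign changed between settings. Naprt shares 277 exon bases with Eef1d on the same strand, so its counts depend on how shared reads were treated. Nmnat1 encodes the nuclear adenylyltransferase that completes NAD from mononucleotides (chromosome 4, 149467572 to 149485202). It had 11.8, 13.4 and 12.4 CPM with piceatannol and 11.02, 11.6 and 12.9 CPM in control, with a log2 fold change of 0.08 (SE 0.10, edgeR adjusted p = 0.483).

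Of the 8 tested genes of the salvage list, 5 rose and 1 fell, where 38.8% of all genes rose and 38.3% fell, and the list's median was 0.75 (log2). Without the 3 members, 4 of 5 rose and 1 fell. Nmrk1, the nicotinamide riboside kinase gene, rose by 1.34 on the log2 scale to 24.7 ± 1.96 CPM with piceatannol, against 9.74 ± 1.09 CPM in control (SD, n = 3 each). Pnp, whose product splits nicotinamide riboside and purine nucleosides, was the single fall (-1.73). It had 60.4 ± 2.87 CPM with piceatannol and 199.9 ± 10.8 CPM in control. The other rises, named after their values were seen, were the mitochondrial adenylyltransferase gene Nmnat3 (0.58), the NAD synthetase gene Nadsyn1 (0.93) and Nmnat2 (2.13). Nmnat2 rested on 66 counts with piceatannol and 19 in control. Nmrk2 had 0 counts in all libraries.

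Nadk encodes the cytosolic kinase that makes NADP from NAD (chromosome 4, 155562378 to 155591001). It had 116, 112 and 121 CPM with piceatannol and 203, 220 and 212 CPM in control. The groups were apart by a wide margin relative to their spread, with a log2 fold change of -0.86 (SE 0.06, edgeR adjusted p = 3.92e-11). Of 4 tested genes of NAD phosphorylation and NADP exchange, Nadk among them, 2 rose and 1 fell (77% of all genes were called), with a median of 0.38 (log2); 2 fell without piceatannol replicate 2 or without control replicate 1. Nadk2, the mitochondrial NAD kinase gene, rose by 1.40 on the log2 scale to 25.6 ± 1.95 CPM with piceatannol, against 9.66 ± 0.425 CPM in control (SD, n = 3 each). Noct, the gene of nocturnin, an NADP(H) phosphatase, rose by 1.12. Hddc3, of another NADPH phosphatase, differed by -0.36 (log2), short of the threshold (edgeR, adjusted p = 0.0845). Nnt, the mitochondrial transhydrogenase gene, had 8 counts with piceatannol and 25 in control and was removed by the filter.

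Cd38 encodes a glycohydrolase and cyclase that consumes NAD at the cell surface (chromosome 5, 43868553 to 43912375). It had 1.85, 1.997 and 1.62 CPM with piceatannol and 8.06, 8.61 and 9.09 CPM in control. All piceatannol libraries were below all control libraries, with a log2 fold change of -2.25 (SE 0.15, edgeR adjusted p = 2.03e-11). Its paralogue Bst1, named after its value was seen, had 80.8 ± 2.26 FPKM with piceatannol and 75.3 ± 6.22 FPKM in control, where Cd38 had 0.463 ± 0.0503 FPKM with piceatannol and 2.21 ± 0.131 FPKM in control (SD, n = 3 each). Bst1 showed a difference of 0.12 (log2) that missed the threshold (edgeR, adjusted p = 0.0906). Of the 17 tested genes listed for NAD cleavage, 9 fell and 3 rose, with a median of -0.58 (log2), where 77% of all genes were called, so the share called is close to that of all genes. Parp12, Parp11 and Parp14, of mono-ADP-ribosyltransferases, fell by 2.21, 2.09 and 1.93 on the log2 scale. Tiparp, a target gene of the aryl hydrocarbon receptor that also encodes such an enzyme, rose by 2.68 to 269 ± 34.9 CPM with piceatannol, against 41.9 ± 0.983 CPM in control (SD, n = 3 each).

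**Figure D3:**
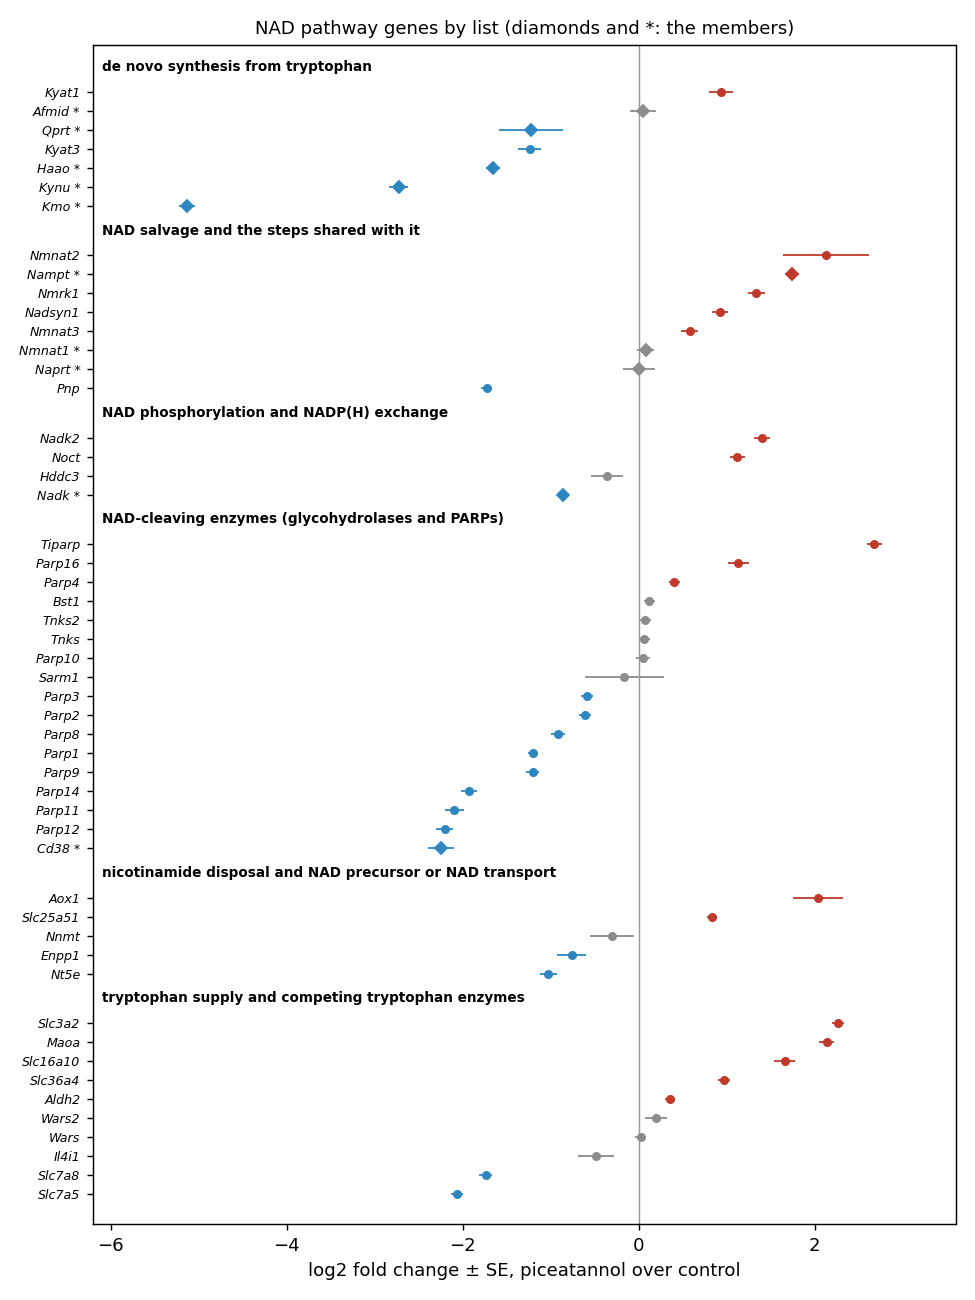
Log2 fold change with its SE (piceatannol over control) for every tested gene of the 6 pathway lists, with members as diamonds; red passed the test upward, blue downward and grey did not pass. Kmo, Kynu, Haao and Qprt lie left of 0 in the tryptophan list, and Nampt lies right of 0 in the salvage list.

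Genes that supply tryptophan or dispose of nicotinamide moved in both directions, as did all genes tested (38.8% called up and 38.3% down). Of 10 tested genes of tryptophan supply and competing use, 5 rose and 2 fell, where 77% of all genes were called, and the list's median was 0.27 (log2). Slc7a5 and Slc7a8, of large neutral amino acid transporters, fell by 2.06 and 1.74, while Slc3a2, their shared heavy chain, rose by 2.26. Maoa, of the monoamine oxidase that degrades serotonin, rose by 2.14. Tph1 and Ddc, of serotonin synthesis, were removed by the filter. Of 5 tested genes of nicotinamide disposal and transport, 2 rose and 2 fell, with a median of -0.30 (log2). Without piceatannol replicate 1, 4 fell. In both lists the share called is close to the 77% of all genes. Aox1, whose product oxidises methylated nicotinamide, rose by 2.04 to 1.80 ± 0.365 CPM with piceatannol, against 0.439 ± 0.117 CPM in control, and Nt5e, of the surface nucleotidase CD73, fell by 1.03. Slc22a13, Slc5a8, Slc12a8 and Enpp3 were removed by the filter.

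Levels of different enzymes were compared per gene length, as FPKM. With piceatannol the order from high to low was Nampt, Nadk, Haao, Nmnat1, Naprt, Afmid, Kynu, Kmo, Cd38 and Qprt. Nampt had 106.9 ± 9.47 FPKM, Nadk 30.6 ± 1.06 and Kmo 0.587 ± 0.0751 in piceatannol libraries (SD, n = 3). In control the order was Nadk, Haao, Nampt, Kmo, Kynu, Nmnat1, Cd38, Naprt, Afmid and Qprt, led by Nadk at 56.6 ± 2.40 FPKM with Haao at 39.2 ± 3.59, Nampt at 32.4 ± 2.81 and Kmo at 21.2 ± 0.849. Neighbours in these orders did not overlap between libraries, except Naprt with Afmid and Kmo with Cd38 in the piceatannol libraries. Kmo thus ranked 8 with piceatannol and 4 in control. The places of Haao and Naprt are uncertain, because the lengths behind their FPKM differ from the annotated ones (1889 against 2344 bases for Naprt). On annotated lengths Haao had 3.19 ± 0.185 FPKM with piceatannol, below Nmnat1, and 10.25 ± 0.938 in control, below Kmo, which then ranked 3 in control. Naprt then had 1.30 ± 0.222 FPKM with piceatannol, below Afmid at 1.32 ± 0.127 and overlapping both Afmid and Kynu. In control Naprt had 1.33 ± 0.186 and Afmid 1.30 ± 0.144 FPKM, which overlapped.

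The summed FPKM of the 10 members was 162, 164 and 149.9 with piceatannol and 162, 169 and 164 in control (deposited FPKM), and these sums overlapped. On annotated lengths the sums were 155.9, 156.7 and 142 with piceatannol and 135.5, 137.7 and 137 in control, and did not overlap (exact two-sided permutation p = 0.1, the smallest possible). The overlap of the sums therefore depends on the gene lengths used, mainly that of Haao. Haao reads were not counted anew over the annotated exons, so whether the summed level differed is not settled. Nampt took 67.2% ± 2.81 of the sum with piceatannol and 19.7% ± 2.10 in control (SD, n = 3 each). Kmo took 0.372% ± 0.065 with piceatannol and 12.8% ± 0.414 in control, and Kynu 0.577% ± 0.130 with piceatannol and 3.75% ± 0.203 in control. Haao took 7.72% ± 0.743 with piceatannol and 23.8% ± 1.67 in control, and Nadk 19.3% ± 1.63 with piceatannol and 34.3% ± 0.753 in control. The ratio of Nampt to Nadk was 3.50 ± 0.420 with piceatannol and 0.575 ± 0.0717 in control, and that of Nampt to Haao 8.78 ± 1.16 with piceatannol and 0.835 ± 0.140 in control. On annotated lengths Nampt took 71.6% ± 2.57 with piceatannol and 24.1% ± 2.23 in control, and Haao 2.11% ± 0.217 with piceatannol and 7.49% ± 0.647 in control. The ratio of Nampt to Haao was then 34.2 ± 4.52 with piceatannol and 3.25 ± 0.547 in control, so Nampt was the higher of the pair in both groups.

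**Figure D4:**
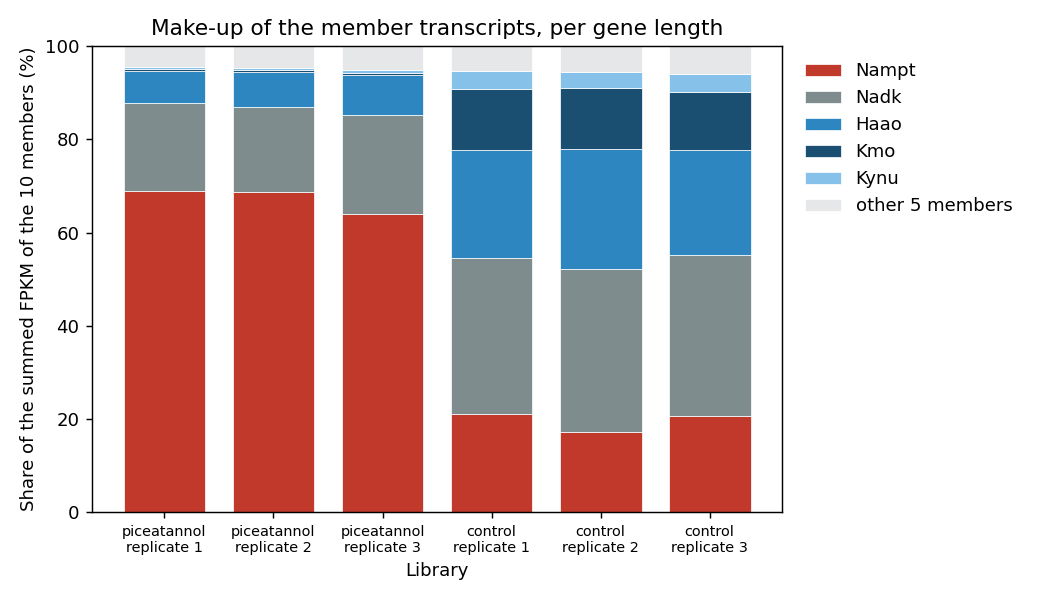
Share of each member in the summed deposited FPKM of the 10 members, in percent, as 1 stacked bar for each library, with piceatannol libraries left of control libraries and the 5 other members pooled in light grey. Nampt fills 64.0% to 69.0% of the piceatannol bars and 17.3% to 21.2% of the control bars, and Kmo 0.311% to 0.440% of the piceatannol bars and 12.4% to 13.2% of the control bars.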

How the data were processed

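Per the labels' protocols, RNA was extracted with Trizol from flash-frozen cells and made into Illumina TruSeq libraries. The authors' deposited table holds unnormalised read counts for each symbol, next to FPKM values. Bcl2fastq, STAR, featureCounts and DESeq2, with builds mm10 and GRCm38, are named in the submitters' processing notes; their versions, the annotation and the strand setting are not stated in the labels. The deposited FPKM values were scaled between libraries by median-of-ratios size factors, as a comparison with the counts showed, and were used for levels between genes and for the limma alternatives on FPKM.

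All 6 libraries were analysed in R 4.3.3. Counts were filtered with edgeR 4.0.16 (filterByExpr, minimum count 10), scaled by TMM and tested with its robust quasi-likelihood fit, piceatannol over control, two-sided; p-values were adjusted over all 15380 genes by Benjamini and Hochberg's method. An SE is the log2 fold change divided by the square root of F. Counts of replicate pairs differed beyond sampling noise (chi-square per degree of freedom 9.78 to 18.01), so no library was counted as a repeat. The labels number the replicates 1 to 3 in both groups, without saying that a number marks a shared batch. Deviations from the group means correlated at 0.160, 0.141 and 0.163 between libraries of the same number, across genes. Between libraries of different numbers they correlated at -0.140 to -0.000453. Each group was centred on its own mean, so positive values for the same number force lower ones for different numbers. The latter are therefore no separate sign of pairing. The numbers were treated as pairs in a blocked alternative. Limma 3.58.1 (voom, and log2 FPKM with a pseudocount of 1 or 0.1) and DESeq2 1.42.0 gave further alternatives. The fit was also run on simulated counts with 200 genes changed. That setting is unlike these data, where 77% of genes were called, and nothing is concluded from it. Levels between genes were also computed with the exon lengths of GENCODE M21, an alternative added after the data were seen. It kept the deposited counts, so its counts and lengths may rest on different annotations. Positions are from GENCODE M21 (GRCm38).

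The members and lists were chosen with earlier results of these data known, and no test over a list was run. All members were named. From each of the 6 lists, up to 4 called genes with a log2 fold change of at least 1 in size and a mean log2 CPM of at least 0 were named, besides genes removed by the filter.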

Additional observations from a re-analysis of the deposited data

How the results depend on the processing

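All 7 called members kept direction and call under each of the 17 alternatives that could test them. The filter at a CPM of at least 5 in 3 libraries removed Qprt, and left 5 members falling and 1 rising. Kmo and Cd38 passed that filter only through the control libraries, where they were high. Qprt, with 7 counts in piceatannol replicate 2, passed the main filter through the control libraries as well. Their calls after filtering are therefore no independent support. With the replicate block, 6038 genes rose and 5974 fell, and 6 members fell and 1 rose, as in the unpaired fit; it changed no call of a member. The log2 fold change of Kmo ranged from -5.23 to -3.81, that of Nampt from 1.67 to 1.81 and that of Qprt from -1.42 to -0.20. The value nearest 0 for Kmo, Kynu (-1.91), Cd38 (-1.13) and Qprt came from log2(FPKM + 1), which by construction understates the change of low genes. The adjusted p of Qprt lay between 0.00196 and 0.0285. Naprt, not called in any fit, had a negative sign with RLE factors (-7.7e-05), library totals (-0.0266), no filter (-0.0263), DESeq2 (-0.00164), log2(FPKM + 1) (-0.0219), log2(FPKM + 0.1) (-0.0349) and the replicate block (-0.000353), and ranged from -0.135 to 0.125 as each library was left out. Afmid ranged from -0.0425 to 0.119 as each library was left out. Leaving out each library in turn gave 1 to 2 falls in the list of NAD phosphorylation (2 without piceatannol replicate 2 or control replicate 1). It gave 2 to 4 falls in that of nicotinamide disposal (4 without piceatannol replicate 1). The cause of these shifts was not tested. The stricter filter, which tested fewer genes (10531 against 15380), left 1 rise in the list of nicotinamide disposal. In the list of tryptophan supply, 3 genes fell instead of 2 with DESeq2, both log2 FPKM fits and the replicate block. The same count was reached without piceatannol replicate 1 or 2. Depth limits Qprt and the genes at a few counts, such as Ido1. Annotated exon lengths, an alternative chosen after seeing the data, moved the Kmo to Haao ratio to 0.185 with piceatannol and 2.08 in control, and the Nampt to Haao ratio to 34.2 with piceatannol and 3.25 in control. They moved the summed FPKM in control to 136.9, the Nampt share to 71.6% with piceatannol and 24.1% in control, and the Haao share to 2.11% with piceatannol and 7.49% in control, mainly through the length of Haao.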

Other observations

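A pair of genes that overlap a member's locus without sharing exon bases with it were called by the test, which called 77% of all genes. They were picked after their values were seen. Tk1 and Eef1d, which share exon bases with Afmid and Naprt, were called as well, at -3.14 and -0.25 (log2). Afmid and Naprt themselves were not called, but their counts depend on how reads in the shared bases were treated. Whether genes at a locus moved together was not tested. Fh1, of the fumarase of the tricarboxylic acid cycle, overlaps the Kmo locus on the opposite strand and had 3382 summed counts with piceatannol and 15353 in control, a log2 fold change of -1.86 (SE 0.07, edgeR adjusted p = 1.57e-15), against -5.13 for Kmo. Gdap10, a long intergenic RNA inside the Nampt locus on the same strand, had 1620 summed counts with piceatannol and 556 in control. Its log2 fold change was 1.90 (SE 0.21, edgeR adjusted p = 8.96e-06), against 1.74 for Nampt. Reads of unspliced Nampt RNA at this place could not be told apart from those of Gdap10.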
